A study of Mus musculus with 7 samples.

Results

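Apolipoproteins are the protein components of the plasma lipoproteins, and the mRNA levels of 9 apolipoprotein genes and of Mttp were compared between livers of TET1 knockout (KO) and wild-type (WT) mice fed a high fat diet (HFD). The 10 genes were chosen by symbol (Apoa1, Apoa2, Apoa4, Apoa5, Apob, Apoc1, Apoc2, Apoc3, Apoe and Mttp) out of 51426 genes in the count tables, and libraries were joined by Ensembl identifier. All 10 genes were measured far above the filter on low counts. The livers came from male mice of the labelled strain C57BL/6J. WT livers (n = 3) were set against livers lacking TET1 in the whole body (n = 4), from the line B6;129S4-Tet1tm1.1Jae/J in the study's methods. All animals of both groups received the HFD, with 60% of calories from fat, for 16 weeks from an age of 8 weeks, so no chow-fed liver enters any value below. The labels number the livers as replicates without saying more on their origin, and p-values measure the spread between these samples.

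The liver packs triglyceride and cholesterol into very low density lipoprotein (VLDL) particles around a single molecule of apolipoprotein B, to which the microsomal triglyceride transfer protein, encoded by Mttp, adds lipid in the endoplasmic reticulum. The smaller apolipoproteins are exchanged between particles. Apoa1 and Apoa2 encode the main proteins of high density lipoprotein (HDL), Apoc2 the activator of lipoprotein lipase, Apoc3 an inhibitor of lipase action and of remnant uptake, and Apoe the ligand for clearance by receptors of the LDL receptor family. Apoa5 promotes triglyceride hydrolysis in plasma. Apoa4 is made mainly in the intestine and, in mice, also in the liver, where it is known to be induced when the liver stores fat. TET1 is an enzyme that oxidizes 5-methylcytosine at CpG sites, a step towards DNA demethylation, and the comparison asked how these genes differed in its absence.

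Library sizes lay between 15005277 and 22746138 counts, and levels in counts per 1000000 (CPM) are given after TMM normalization, which corrects for differences in library makeup. The 10 genes together took between 5.001% and 6.61% of the counts of each library. Tet1 itself had 1 to 4 counts in every library of either genotype, near the limit of detection (3 counts), so its mRNA does not check the genotype labels. Over all 14754 genes tested, edgeR's quasi-likelihood test with Benjamini-Hochberg adjustment called 117 genes as higher in the knockout and 156 as lower (1.85% of genes), at an adjusted p under 0.05 and a log2 fold change between -3 and 3. With scaling by library size only, the split was 97 higher and 295 lower, and the median log2 fold change of all genes moved from 0.01 to -0.08. The hepatocyte marker Alb was the leading hepatocyte transcript, at a mean of 54484 CPM in WT and 51924 CPM in TET1 KO livers, and its groups overlapped. None of the 5 hepatocyte markers tested was called by edgeR (0 at an unadjusted p under 0.05), and their log2 fold changes lay between -0.45 for Cps1 and 0.46 for Serpina1a, which was without overlap and called higher by DESeq2 (1 of 5). In bulk liver RNA, fewer cells of a type and less RNA per cell cannot be told apart.

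The members Apoa1, Apoc3, Apoa4 and Apoa5 lie side by side on chromosome 9 (GRCm38.p6, RefSeq). The upstream sequences of 3 of them are shown because neighbouring genes of the cluster gave values of opposite sign below, and that of Mttp for contrast in CpG content. Each line gives the 250 bases before the annotated start, 5′ to 3′ on the gene's strand, with every CpG dinucleotide, the substrate site of DNA methylation in mammals, in capitals. The windows are chr9:46240594-46240843 (plus strand) for Apoa4, chr9:46228380-46228629 (plus strand) for Apoa1, chr9:46268358-46268607 (plus strand) for Apoa5 and chr3:138143419-138143668 (minus strand) for Mttp.
Apoa4: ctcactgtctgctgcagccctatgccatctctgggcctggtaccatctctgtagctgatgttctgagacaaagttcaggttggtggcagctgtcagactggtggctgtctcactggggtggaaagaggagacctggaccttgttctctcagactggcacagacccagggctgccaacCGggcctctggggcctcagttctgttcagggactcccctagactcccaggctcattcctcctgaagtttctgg
Apoa1: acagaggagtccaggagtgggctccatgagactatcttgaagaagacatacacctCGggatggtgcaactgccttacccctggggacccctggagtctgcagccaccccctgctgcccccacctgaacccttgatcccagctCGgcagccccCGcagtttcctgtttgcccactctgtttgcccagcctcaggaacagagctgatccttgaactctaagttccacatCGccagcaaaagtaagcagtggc
Apoa5: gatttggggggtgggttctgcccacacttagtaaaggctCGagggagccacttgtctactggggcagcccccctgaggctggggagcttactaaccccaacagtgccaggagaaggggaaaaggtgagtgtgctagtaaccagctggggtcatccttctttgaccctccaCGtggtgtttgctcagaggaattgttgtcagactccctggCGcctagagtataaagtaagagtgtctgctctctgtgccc
Mttp: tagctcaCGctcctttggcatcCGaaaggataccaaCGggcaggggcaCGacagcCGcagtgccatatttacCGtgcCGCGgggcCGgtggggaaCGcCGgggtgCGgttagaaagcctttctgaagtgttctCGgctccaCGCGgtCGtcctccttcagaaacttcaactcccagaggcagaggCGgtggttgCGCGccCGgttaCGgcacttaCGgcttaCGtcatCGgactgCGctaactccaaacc
The Apoa4 window held 1 CpG, that of Apoa1 4, that of Apoa5 3 and that of Mttp 25, beside a median of 6 over 32851 RefSeq promoter windows of the same length. In all, 18.8% of these windows held no more CpGs than that of Apoa4, and 90.4% no more than that of Mttp. Windows were found for 8 of the 10 genes, the others being Apoc1 and Apoc3. Methylation was not measured in these libraries.

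The windows were also searched on both strands for 5 short motifs, which do not contain one another. TATAAA, the TATA box, stood 31 bases before the start of Apoa5 (position -31) and at -60 before that of Apob, and was held by 12.4% of all windows. CACGTG, an E-box, stood at -82 of Apoa5 (6.02% of windows), TGACGT, a cyclic AMP response element core, at -29 of Mttp on the opposite strand (6.47%), and AGGTCA, a nuclear receptor half-site, at -115 of Apoc2 and, on the opposite strand, at -238 of Apoa2 (14.0%). Further TATAAA matches lay before other annotated starts of Apoa2 and Apoe. Neither the Apoa4 nor the Apoa1 window held any of these letters or CAAAGTCCA, an HNF4 core (0.384% of windows), which says nothing on which factors bind there.

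Levels of different genes were compared per kilobase (kb) of annotated exon. In WT livers the order was Apoe (14078 ± 2057 CPM per kb, SD, n = 3), Apoa2 (13938 ± 3475), Apoc1 (11681 ± 3117), Apoa1 (4280 ± 785), Apoc3 (1961 ± 470), Apoa4 (421 ± 130), Apoa5 (401 ± 39.5), Apoc2 (215 ± 31.3), Apob (209 ± 61.6) and Mttp (51.6 ± 12.04). Apoe, Apoa2 and Apoc1 overlapped their neighbours in this order, as did Apoa4 and Apoa5, and Apoc2 and Apob. In TET1 KO livers Apoa4 came ninth, at 121 ± 51.2 CPM per kb (SD, n = 4), between Apob at 141 ± 17.2, which it overlapped, and Mttp at 39.7 ± 2.90. By CPM, Apoe ranked number 2 of all tested genes, and per kb Apoa2, Apoc1 and Apoe ranked 2, 3 and 5 of 13469 genes with a length.

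Of the 10 genes, 1 was called, which was Apoa4, and it was lower in TET1 KO livers (all genes called lower: 1.06%). Before adjustment, 6 of the 10 had p under 0.05 (26.3% of all genes), and in 5 the groups did not overlap (22.5% of all genes), with 3 lower and 2 higher in TET1 KO livers. The log2 fold changes were positive for 5 genes and negative for 5, with a median of -0.01 beside 0.01 for all genes tested.

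**Figure D1:**
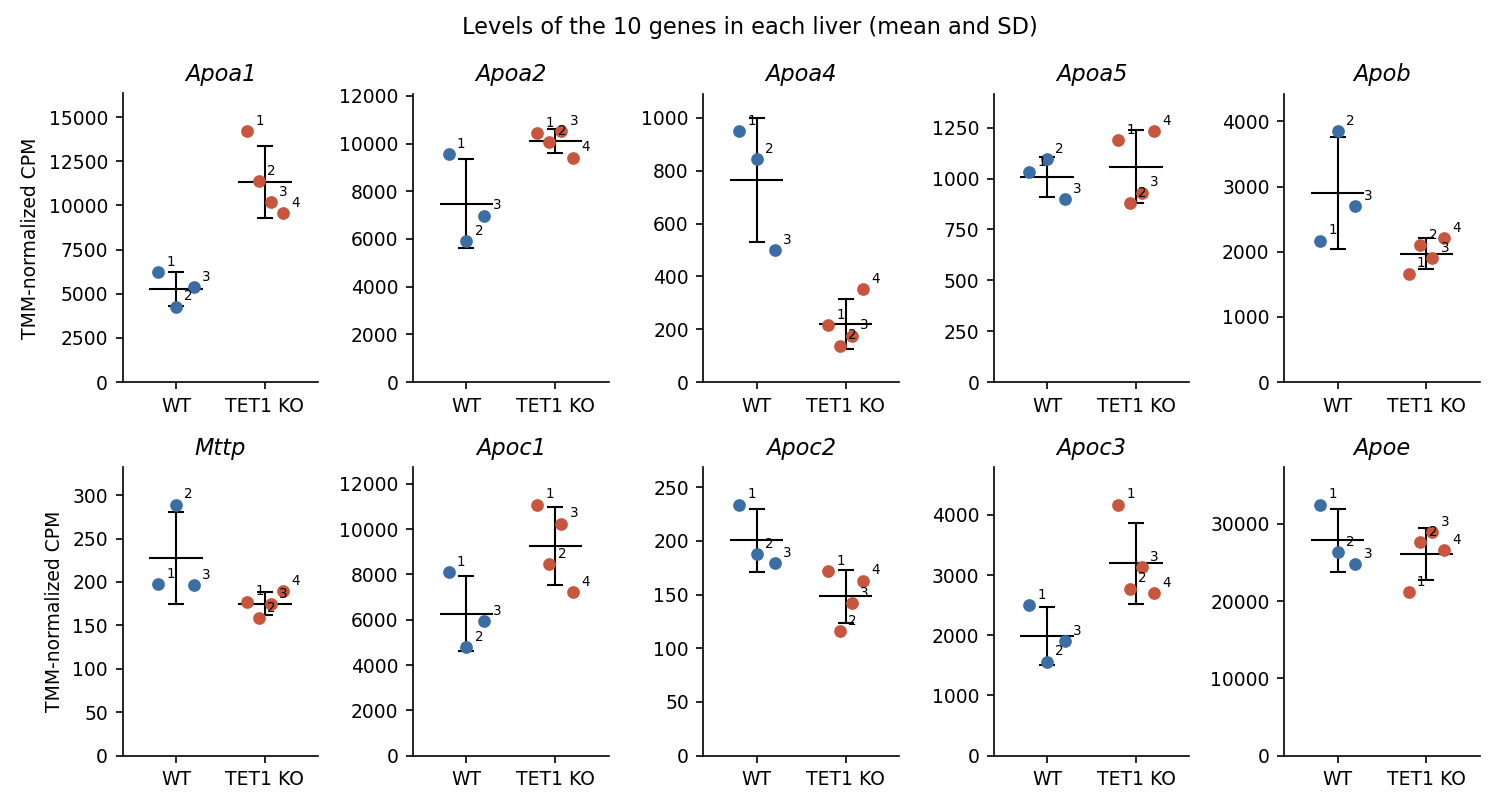
TMM-normalized CPM (vertical axis, from 0) of each of the 10 genes in the 3 WT livers (blue) and the 4 TET1 KO livers (red), with replicate numbers beside the points and mean ± SD as lines. The groups are apart for Apoa4, Apoc2 and Mttp, which are lower in TET1 KO livers, and for Apoa1 and Apoc3, which are higher, and they overlap for the other 5 genes.

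Apoa4 (ENSMUSG00000032080, chromosome 9 from 46240844 to 46243458) was measured at 950, 843 and 499 CPM in WT replicates 1, 2 and 3. In TET1 KO replicates 1 to 4 it was at 215, 138, 176 and 351 CPM. No TET1 KO liver reached the lowest WT value, with WT replicate 3 the lowest of its group and TET1 KO replicate 4 the highest of its own. The mean was 764 ± 235 CPM (SD, n = 3) in WT livers and 220 ± 92.9 CPM (SD, n = 4) in the knockout, or 28.8% of the WT mean. The log2 fold change was -1.79 (standard error, SE, 0.31, 95% interval -2.48 to -1.11, edgeR adjusted p = 0.0201). Among 1231 genes with a mean of at least 100 CPM, 6 including Apoa4 had a log2 fold change this low. The call was lost without WT replicate 2 (log2 fold change -1.73, adjusted p = 0.106), without TET1 KO replicate 2 (-1.64, adjusted p = 0.0512) or without TET1 KO replicate 3 (-1.71, adjusted p = 0.0686).

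The neighbours of Apoa4 in the cluster had other values. Apoa1 (ENSMUSG00000032083, chromosome 9 from 46228630 to 46230469), the main HDL protein gene, was measured at 6214, 4280 and 5377 CPM in WT livers. In TET1 KO livers it was at 14205, 11368, 10175 and 9581 CPM, so that the lowest of these lay above the highest WT liver. The mean was 5290 ± 970 CPM (SD, n = 3) in WT and 11332 ± 2054 CPM (SD, n = 4) in the knockout, a log2 fold change of 1.10 (SE 0.32, 95% interval 0.39 to 1.81), which missed the threshold with an edgeR adjusted p of 0.0818. DESeq2, the alternative test, called it higher with an adjusted p of 2.44e-06 (9.27% of all genes were called by DESeq2).

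Apoc3 (ENSMUSG00000032081, chromosome 9 from 46233050 to 46235636) lies between Apoa1 and Apoa4. It was at 2504, 1564 and 1898 CPM in WT and at 4172, 2778, 3133 and 2698 CPM in TET1 KO livers, again without overlap. Its log2 fold change of 0.68 (SE 0.26, edgeR adjusted p = 0.132) was not called, and DESeq2 gave an adjusted p of 0.0248. Apoa5 (ENSMUSG00000032079, chromosome 9 from 46268608 to 46271921) was at 1031, 1095 and 900 CPM in WT and at 1190, 880, 932 and 1233 CPM in TET1 KO livers. The TET1 KO values of Apoa5 enclosed all WT values, and its log2 fold change of 0.07 (95% interval -0.34 to 0.48, edgeR adjusted p = 0.834) became -0.02 when libraries were scaled by size only.

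The genes around the cluster were examined to show how far the values extended. Of the 5 annotated protein-coding genes on each side, 8 of 10 passed the filter, and their log2 fold changes lay between -0.28 for Pafah1b2 and 0.17 for Zpr1. None of these 8 was called by edgeR (0 at an unadjusted p under 0.05) or by DESeq2 (0 genes), and none was without overlap. Sik3, the nearest gene on the Apoa1 side, had a log2 fold change of -0.04, and Zpr1 is the nearest on the Apoa5 side.

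**Figure D2:**
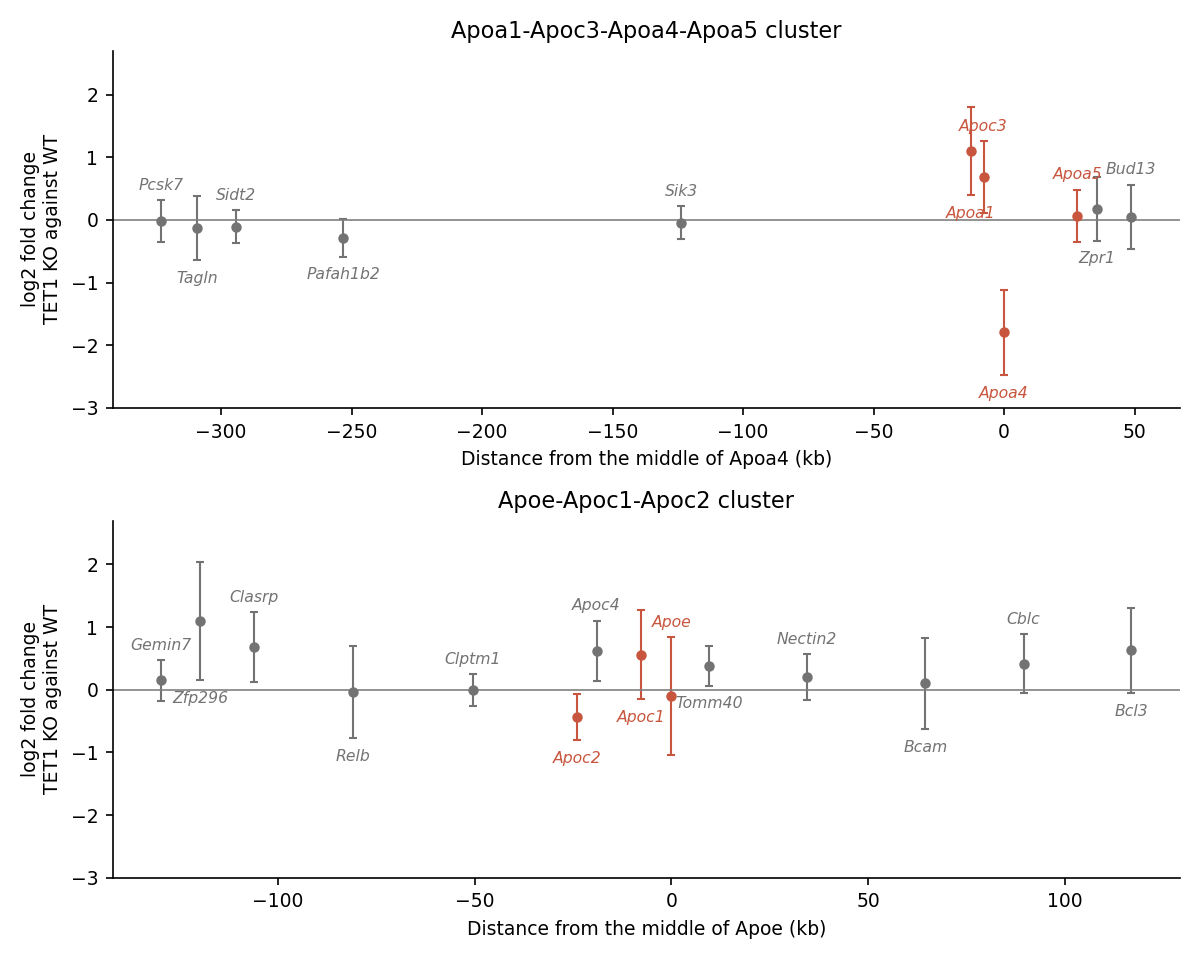
Log2 fold change of TET1 KO against WT with 95% intervals (vertical axis, edgeR) by distance in kb from the middle of Apoa4 (upper) and of Apoe (lower), with the described genes in red and other protein-coding genes in grey. Apoa4 lies at -1.79 between Apoc3 at 0.68 and Apoa5 at 0.07, and in the lower panel Apoc2 lies at -0.43 beside Apoc4 at 0.62. Cadm1, far to the right of the upper panel, and Gm44805, which overlaps Apoc2, are not drawn.

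Apoa4 was then set against the other 8 apolipoproteins within each liver, which removes any factor common to them. Per 1000 reads of the other 8 genes, Apoa4 had 15.3, 17.6 and 10.2 reads in WT livers. In TET1 KO livers it had 3.36, 2.18, 2.67 and 5.94 reads, so that the highest TET1 KO liver lay well below the lowest WT liver. The means were 14.3 ± 3.74 (SD, n = 3) and 3.54 ± 1.68 (SD, n = 4). When each library was scaled to the summed counts of these 8 genes, the log2 fold change of Apoa4 was -2.02 (SE 0.32, edgeR adjusted p = 0.00595). This scaling moved the median log2 fold change of all genes to -0.26, and 6.02% of all genes were called lower with it. The calls in both directions, 976 in number, became 4082, 111 and 197 without WT replicates 1, 2 and 3, respectively, and 347, 266, 169 and 1931 without TET1 KO replicates 1 to 4. Apoc2 passed the threshold on this scale too (log2 fold change -0.68, adjusted p = 0.0441), and the other 7 apolipoproteins did not. Each of these 8 genes is itself part of the sum. Abundant ones such as Apoe, at 51.9% of the apolipoprotein counts in WT livers, move the sum with them. For such genes, missing the threshold on this scale therefore says little.

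Scaled to the geometric mean of the 8 genes, in which abundant Apoe carries no more weight than Apoc2, the log2 fold change of Apoa4 was -2.01 (edgeR adjusted p = 0.00716). The ratio of Apoa4 to each single apolipoprotein was without overlap for all 8, and lower in TET1 KO livers. The difference was greatest against Apoa1, where the mean ratio was 0.148 ± 0.0523 (SD, n = 3) in WT and 0.0203 ± 0.0111 (SD, n = 4) in TET1 KO livers. It was least against Apob, at 0.281 ± 0.137 and 0.112 ± 0.0409, respectively, a log2 difference of -1.30. These ratios share the Apoa4 values and are given as a description.

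**Figure D3:**
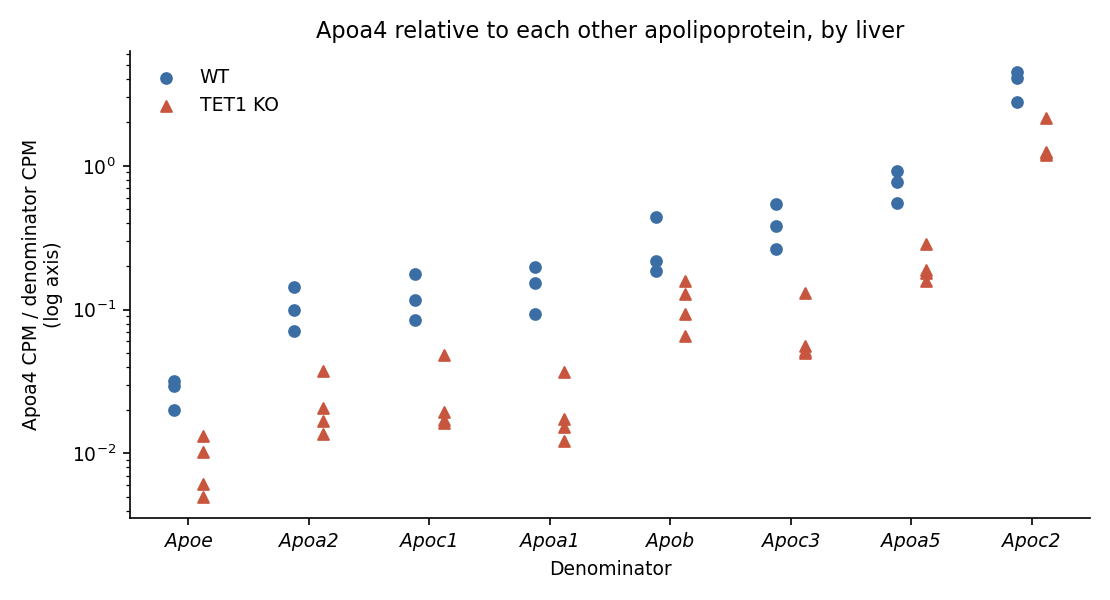
Ratio of Apoa4 CPM to the CPM of each other apolipoprotein (vertical axis, logarithmic) in the 3 WT livers (blue circles) and the 4 TET1 KO livers (red triangles). For each of the 8 denominators the TET1 KO livers lie below all WT livers.

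The makeup of the apolipoprotein counts followed from these values. Apoe took 51.9% ± 1.83 (SD, n = 3) of the counts of the 9 apolipoproteins in WT livers and 41.2% ± 5.56 (SD, n = 4) in TET1 KO livers. Apoa1 took 9.83% ± 1.08 and 17.9% ± 3.01, respectively. The share of Apoa4 was 1.41% ± 0.364 in WT and 0.352% ± 0.166 in TET1 KO livers. TET1 KO replicate 1 had the lowest share of Apoe, at 32.9%, and the highest of Apoa1, at 22.1%. Shares sum to a whole, so a higher share of one gene lowers those of the rest.

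**Figure D4:**
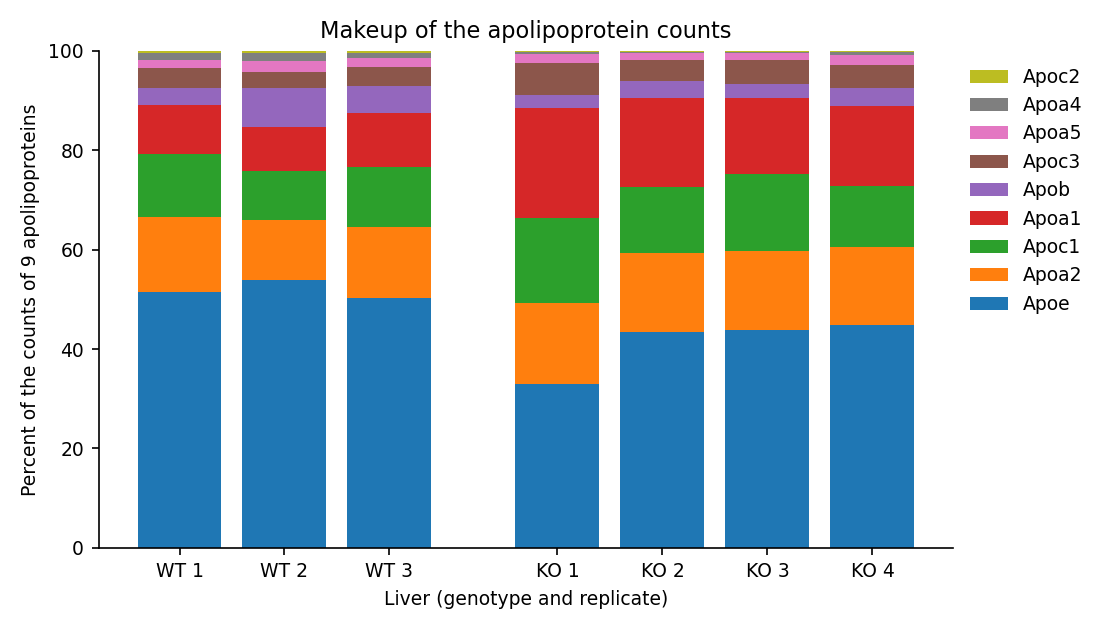
Percent of the summed counts of the 9 apolipoprotein genes taken by each gene (vertical axis, 0 to 100) in each of the 3 WT and 4 TET1 KO livers. The Apoa1 share is between 8.76% and 10.9% in WT livers and between 15.4% and 22.1% in TET1 KO livers.

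Neither Mttp nor Apob, the pair needed to start a VLDL particle, was called. Mttp (ENSMUSG00000028158, chromosome 3 from 138089855 to 138143418) was at 198, 289 and 196 CPM in WT and at 177, 159, 175 and 190 CPM in TET1 KO livers. The groups did not overlap, but the highest TET1 KO liver and the lowest WT liver were close together and WT replicate 2 stood above all others. The log2 fold change of Mttp was -0.38 (SE 0.16, edgeR adjusted p = 0.167), and -0.18 without WT replicate 2. Apob (ENSMUSG00000020609, chromosome 12 from 7977629 to 8016839) was at 2170, 3849 and 2699 CPM in WT and at 1665, 2101, 1902 and 2209 CPM in TET1 KO livers. The groups overlapped at WT replicate 1 and TET1 KO replicate 4, and the log2 fold change was -0.56 (SE 0.24, edgeR adjusted p = 0.173), and -0.31 without WT replicate 2. The ratio of Apob to Mttp was 12.7 ± 1.49 (SD, n = 3) in WT and 11.3 ± 1.61 (SD, n = 4) in TET1 KO livers, with overlap. WT replicate 2 was the highest liver for both genes.

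Apoe, Apoc1 and Apoc2 form a second cluster, on chromosome 7. Apoe (ENSMUSG00000002985, from 19696244 to 19701310) was at 32493, 26338 and 24792 CPM in WT and at 21176, 27659, 28944 and 26603 CPM in TET1 KO livers. The groups overlapped, and the log2 fold change was -0.10 with a 95% interval from -1.03 to 0.84 (edgeR adjusted p = 0.904). DESeq2 gave -0.11 with an SE of 0.17 (adjusted p = 0.719). Apoc1 (ENSMUSG00000040564, from 19689480 to 19692659), an inhibitor of lipoprotein uptake, was at 8091, 4796 and 5931 CPM in WT and at 11076, 8457, 10238 and 7220 CPM in TET1 KO livers. The groups overlapped through WT replicate 1, and the log2 fold change was 0.56 (SE 0.32, adjusted p = 0.286).

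Apoc2 (ENSMUSG00000002992, from 19671579 to 19677941), the lipoprotein lipase activator, was at 234, 188 and 180 CPM in WT and at 172, 116, 142 and 163 CPM in TET1 KO livers. All TET1 KO values were below all WT values, with a log2 fold change of -0.43 (SE 0.16, edgeR adjusted p = 0.133). The entry Gm44805 (from 19671579 to 19681460) spans Apoc2 and Apoc4 and held between 102.7% and 105.9% of the counts of Apoc2 in each library, so reads of these 2 entries cannot be told apart. Apoc3 inhibits the step that Apoc2 activates, and the ratio of Apoc2 to Apoc3 was 0.103 ± 0.0151 (SD, n = 3) in WT and 0.0472 ± 0.00900 (SD, n = 4) in TET1 KO livers, without overlap. Of the 10 genes flanking this cluster, all tested, none was called by edgeR (3 at an unadjusted p under 0.05, beside 26.3% of all genes) or by DESeq2 (0 genes). Those 3, Zfp296, Clasrp and Tomm40, named after their values were seen, were without overlap and higher in TET1 KO livers (22.5% of all genes were without overlap).

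Apoa2 (ENSMUSG00000005681, chromosome 1 from 171221564 to 171226379), the other main HDL protein gene, was at 9550, 5921 and 6982 CPM in WT and at 10436, 10078, 10518 and 9413 CPM in TET1 KO livers. The TET1 KO livers lay close together and overlapped WT replicate 1 alone, with a log2 fold change of 0.43 (SE 0.31, edgeR adjusted p = 0.384), and 0.28 without WT replicate 2. The ratio of Apoa1 to Apoa2 was 0.714 ± 0.0601 (SD, n = 3) in WT and 1.12 ± 0.175 (SD, n = 4) in TET1 KO livers, without overlap.

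**Figure D5:**
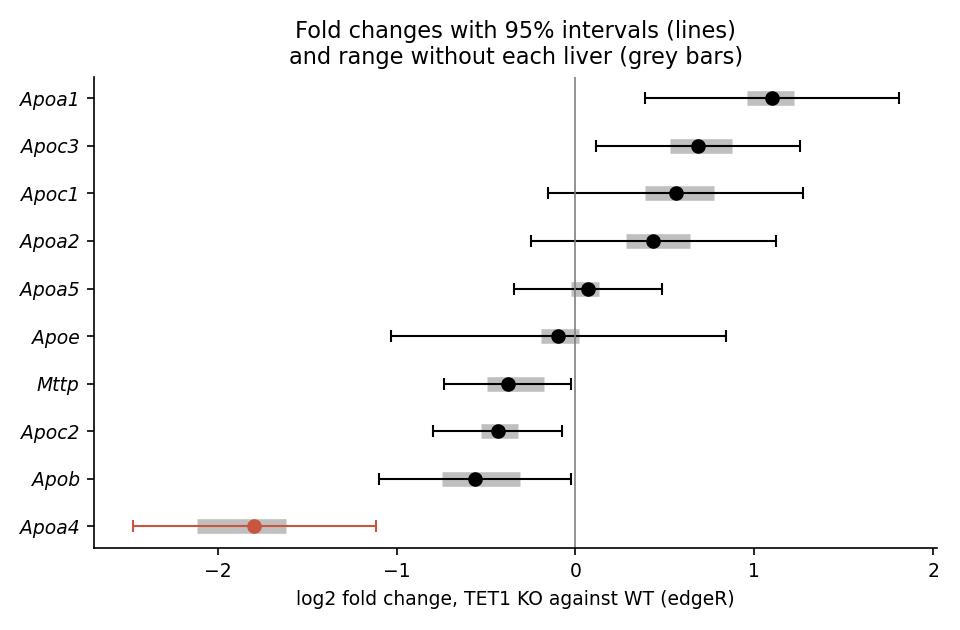
Log2 fold change of each of the 10 genes, TET1 KO against WT (horizontal axis, edgeR), with 95% intervals as lines and the range of the value when each liver in turn is left out as grey bars and the called gene in red. Apoa4 at -1.79 is the only called gene, and Apoa1 at 1.10 lies farthest on the other side.

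The other genes of lipoprotein metabolism were read from 7 lists holding 88 genes, of which 87 were tested. Of these, 8 (9.20%) were called, each lower in TET1 KO livers, beside 1.85% called and 1.06% called lower over all genes. The lists were chosen with earlier results of these livers known, and 3 of the 8 belong to the list of liver fat genes, so the share is a description. The median log2 fold change of the 87 genes was 0.02 beside 0.01 for all genes. Among 26 VLDL assembly and secretion genes, 2 were called, and both encode parts of the COPII coat that carries cargo out of the endoplasmic reticulum. The COPII GTPase genes Sar1a and Sar1b, on the same list and named after their values were seen, overlapped between the groups (-0.17 with an adjusted p of 0.427, and -0.04 with 0.843, on the log2 scale). Sec23a was at 61.2, 83.9 and 66.7 CPM in WT and at 46.3, 46.5, 42.4 and 46.7 CPM in TET1 KO livers (log2 fold change -0.63, edgeR adjusted p = 0.0432). Sec24d was at 54.3, 63.2 and 52.4 CPM in WT and at 23.6, 34.4, 36.6 and 36.1 CPM in TET1 KO livers (log2 fold change -0.79, adjusted p = 0.0385). The list's median was -0.01, with 12 genes positive and 14 negative. The call of Sec23a was lost without WT replicates 2 (adjusted p = 0.170) or 3 (0.0678), or without TET1 KO replicates 1 (0.0608), 2 (0.0942) or 3 (0.117), and that of Sec24d without WT replicates 1 (0.0533), 2 (0.186) or 3 (0.0581), or without TET1 KO replicates 2 (0.0820) or 3 (0.0771).

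Of the 2 genes listed for Apob mRNA editing, A1cf, which encodes the RNA-binding cofactor of the editing enzyme, was called lower. It was at 39.3, 53.7 and 35.2 CPM in WT and at 23.1, 22.2, 20.5 and 23.1 CPM in TET1 KO livers (log2 fold change -0.94, SE 0.16, edgeR adjusted p = 0.0169). Its call was lost without WT replicate 2 (adjusted p = 0.0733), TET1 KO replicate 2 (0.0506) or TET1 KO replicate 3 (0.0620). Apobec1, the editing enzyme, had a log2 fold change of 0.22 (adjusted p = 0.452). Editing of the transcript cannot be read from gene counts.

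Among 8 receptor and clearance genes, Vldlr, the VLDL receptor, was called lower (8.70 ± 2.78 CPM, SD, n = 3, against 3.72 ± 1.00, SD, n = 4, log2 fold change -1.23, edgeR adjusted p = 0.0471). It lost the call without any one of WT replicates 1 (adjusted p = 0.0720) and 2 (0.228) and TET1 KO replicates 1 (0.0789), 2 (0.0594) and 3 (0.118), and with a filter of at least 10 counts in every library (0.0504). Among 22 transcriptional regulators of apolipoprotein genes, 18 were positive, with a list median of 0.14, and 1 was called. This was Pparg, a nuclear receptor of fat storage, which was lower (13.5 ± 4.77 CPM, SD, n = 3, against 4.38 ± 1.49, SD, n = 4, log2 fold change -1.63, adjusted p = 0.0265). The call of Pparg was lost without WT replicates 1 (0.0549) or 2 (0.149) or TET1 KO replicate 3 (0.0786).

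None of the 10 tested genes of lipoprotein remodelling was called by edgeR (5 at an unadjusted p under 0.05, beside 26.3% of all genes, and 1 called by DESeq2, beside 9.27%). The smallest p values were those of Angptl4, an inhibitor of lipoprotein lipase, with a log2 fold change of 0.69 (edgeR adjusted p = 0.0977), and Abca1, a cholesterol exporter, at -0.40 (adjusted p = 0.126). Of 10 tested genes among other apolipoproteins and HDL proteins, none was called by edgeR (2 at an unadjusted p under 0.05, and 1 called by DESeq2). The smallest p values there were those of Apoc4 (log2 fold change 0.62, adjusted p = 0.112) and Saa2, an acute phase apolipoprotein (-3.41, adjusted p = 0.115). Saa2 stood at 1724 CPM in WT replicate 3 and between 7.88 and 133 CPM in the other 6 livers, and its log2 fold change was 0.20 without that liver.

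The list of genes known to move with liver fat or CREB3L3, an activator of Apoa4, held 9 genes and had a median of -1.63. Of these, 6 had a DESeq2 adjusted p under 0.05. They include Mogat1, whose DESeq2 log2 fold change of -3.34 lies outside the fold limit of a call. Within that limit, DESeq2 called 9.27% of all genes. The list was drawn up with results of these livers known. By edgeR 3 genes of the list were called, each lower (1.06% of all genes). They were Cd36, a fatty acid transporter (155 ± 46.6 CPM, SD, n = 3, against 19.8 ± 8.57, SD, n = 4, log2 fold change -2.97, edgeR adjusted p = 0.00346), and the lipid droplet coat genes Plin2 (-1.01, adjusted p = 0.0382) and Plin4 (-1.59, adjusted p = 0.00602). Cd36 lay beyond -3, the fold limit of a call, without WT replicate 3 (-3.20), TET1 KO replicate 2 (-3.05) or TET1 KO replicate 4 (-3.22), with library size only (-3.06) and with the replicate number as a block (-3.27). The call of Plin2 was lost without WT replicates 1 (0.0550) or 2 (0.191) or TET1 KO replicates 1 (0.0587), 2 (0.0942) or 3 (0.110). Mogat1, an enzyme of triglyceride synthesis named after its values were seen, had a log2 fold change of -3.31 (adjusted p = 0.00272), outside the fold limit of a call. Creb3l3 itself was at 237 ± 8.74 CPM (SD, n = 3) in WT and 289 ± 37.1 CPM (SD, n = 4) in TET1 KO livers, without overlap (log2 fold change 0.29, adjusted p = 0.215). Fgf21, a hormone gene of this list (chosen for naming after its values were seen), was lower without overlap (log2 fold change -1.63, edgeR adjusted p = 0.0616, DESeq2 adjusted p = 0.00385).

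The pattern of Apoa4 over the 7 livers was compared with that of every tested gene, by the root mean square difference of log2 CPM deviations from the WT mean. The nearest were Gm7329 (0.291), Plin4 (0.297), Bglap3 (0.298), Gpc1 (0.316) and Ckap2 (0.338). Plin4 also belongs to the list above. Gm7329, Bglap3 and Ckap2 were at or below 3.39 CPM in every liver, whereas Gpc1, a heparan sulfate proteoglycan, was at 28.0, 40.2 and 17.9 CPM in WT and at 9.07, 5.35, 10.1 and 12.6 CPM in TET1 KO livers. The measure uses the same livers as the comparison of genotypes.

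Markers of other cells were read beside these results. Levels of single genes here are after TMM normalization, whereas the summed levels of a list were scaled by library size only. Apoa4 and Apob are on the enterocyte list too, and of its other 6 genes Vil1, Cdh17, Alpi, Lct and Sis had between 0 and 7 counts in any library, while Fabp2, which the liver also expresses, had a log2 fold change of -0.78 (edgeR adjusted p = 0.112, DESeq2 adjusted p = 0.0486). All 5 cholangiocyte markers were positive, and their summed level was between 29.99 and 39.3 CPM in WT and between 45.2 and 64.3 CPM in TET1 KO livers. Spp1 and Sox9 made up most of this sum and were without overlap (log2 fold changes 0.58 and 1.22, edgeR adjusted p = 0.0859 and 0.0569, DESeq2 adjusted p = 0.0484 and 0.00253). Krt19, Krt7 and Epcam were at 6.67, 2.69 and 4.87 CPM in TET1 KO replicate 4 and reached 1.69, 1.41 and 0.985 CPM at most elsewhere. Epcam was without overlap as well (22.5% of all genes were), whereas Krt19 and Krt7 overlapped. Of the 6 stellate cell markers 1 was called by edgeR (1.85% of all genes), which was Rgs5 (-0.67, edgeR adjusted p = 0.0460). DESeq2 called 2 (9.27% of all genes), Rgs5 and Col1a1 (-0.96, edgeR adjusted p = 0.0874, DESeq2 adjusted p = 0.0247). The summed levels of the 6 were 196 to 302 CPM in WT and 177 to 239 CPM in TET1 KO livers. Summed Kupffer cell and macrophage markers, which matter for Apoe since macrophages make it, were at 196 to 300 CPM in WT and 138 to 309 CPM in TET1 KO livers. The summed endothelial markers were at 129 to 134 CPM in WT and 101 to 120 CPM in TET1 KO livers. They were without overlap when scaled by library size only, with 4 of 5 genes negative. All 5 red blood cell markers were negative, and their sum was at 785 to 906 CPM in WT and 215 to 1129 CPM in TET1 KO livers. The adipocyte markers Adipoq and Plin1 had 60 and 70 counts in TET1 KO replicate 2 and at most 9 counts in any other liver, while Lep had 6 counts in that liver and 17 in WT replicate 2. The part of these cells in the results was not tested.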

How the data were processed

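Poly(A)-selected or ribosome-depleted liver RNA (the labels name both without saying which was used) was made into strand-marking libraries. The authors deposited raw read counts per gene for each of 7 livers, without normalization. The submitters' processing notes name Trimmomatic 0.36, GSNAP, featureCounts 1.5.3 and GRCm38. The annotation release and the strand setting of the counting are not given in the sources used here, so overlapping genes remain uncertain. The 5 repeated entries among 51431 were left out. Because 26 symbols differed between tables (some had become dates), genes were joined by identifier.

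Counts were tested in R 4.3.3 with edgeR 4.0.16 (filterByExpr, TMM, glmQLFit with legacy = FALSE, glmQLFTest, no covariates). Library sizes were 15005277 to 22746138, and at least 99.88% of the counts fell in the 14754 genes kept. Calls needed an adjusted p (Benjamini-Hochberg over all tested genes) under 0.05 and a log2 fold change between -3 and 3. The standard error was the log2 fold change over the root of F. Log2 CPM used a prior count of 2. For Apoa4 against the other apolipoproteins, the library size was replaced by the summed counts of the other 8 genes. Ratios are described without a test. Livers were grouped by their labels, which name no batch. No liver was left out, and libraries of 1 genotype differed beyond counting noise (lowest chi-square per degree of freedom 27.4). The fits were tested on simulated data.

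The members and gene lists were chosen with earlier results of these data known. The lists were other apolipoproteins and HDL proteins, VLDL assembly and secretion, Apob mRNA editing, receptors and clearance, remodelling, transcriptional regulators, and genes moving with CREB3L3 or liver fat, plus markers of hepatocytes, enterocytes, Kupffer cells, stellate cells, cholangiocytes, adipocytes, endothelial cells and red blood cells. Genes named are the 10 members, the called genes of each list or, with none called, the 2 with the smallest p, the 5 genes nearest to Apoa4 in pattern, called genes among 5 on each side of the clusters, and Tet1. Other genes were named after their values were seen. No gene was called in the hepatocyte, Kupffer cell, cholangiocyte, adipocyte, endothelial or red blood cell lists by edgeR (0, 0, 4, 0, 1 and 1 genes at an unadjusted p under 0.05, and 1, 0, 3, 0, 1 and 0 by DESeq2, respectively). Coordinates and upstream sequences are RefSeq GRCm38.p6. Exon lengths come from GENCODE M1 and were used for levels per kb only. Alternatives were DESeq2 1.42.0, its size factors, library size only, other filters, the replicate number as a block, robust dispersions, changed limits on a call, and leaving out each liver in turn. Figures were drawn with matplotlib 3.10.9.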

Additional observations from a re-analysis of the deposited data

Results flagged for a closer look

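In each group of 4 TET1 KO livers, the gap of the farthest liver to its neighbour was divided by the whole range and set against Dixon's 95% critical value for 4 samples, which chance alone passes in about 1 in 20 groups. Of 116 values examined (the 10 members, 15 ratios, the genes of the 7 pathway lists and those nearest to Apoa4), 13 passed, none of them the level of 1 of the 10 members. TET1 KO replicate 4 stood above the rest in the ratio of Apoa4 to Apoc1 (0.905 of the range, with 0.0487 against 0.0164 to 0.0194), of Apoa4 to Apoc2 (0.939, with 2.16 against 1.19 to 1.25) and of Apoa4 to Apoc3 (0.921, with 0.130 against 0.0498 to 0.0562). In each of these 3 ratios it still lay below all WT livers. The same liver stood above the rest in Ckap2 (0.940, with 0.371 CPM against 0.0511 to 0.0704). TET1 KO replicate 3 was highest in the ratio of Apoc1 to Apoa1 (0.864, with 1.01 against 0.744 to 0.780) and lowest in Sec23a (0.901, with 42.4 CPM against 46.3 to 46.7). TET1 KO replicate 1 was lowest in Sec24d (0.832, with 23.6 CPM against 34.4 to 36.6), Apoh (0.844, with 937 CPM against 1774 to 1928) and Pon1 (0.938, with 415 CPM against 789 to 814), and highest in Vmp1 (0.888, with 216 CPM against 85.4 to 100.1). TET1 KO replicate 2 was highest in Lpl (0.871, with 45.2 CPM against 17.2 to 20.8), Cidea (0.979, with 6.69 CPM against 0.0511 to 0.188) and Cidec (0.878, with 3.66 CPM against 1.02 to 1.34).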

How the results depend on the processing

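Apoa4 was lower in TET1 KO livers under all 14 alternatives, and its log2 fold change lay between -2.11 and -1.62 when each liver in turn was left out, with adjusted p of up to 0.106. Relative to the other 8 apolipoproteins, it passed the threshold under all 12 alternatives that kept such a scaling, with values from -2.39 to -1.85 without single livers. The number of genes called, 273 in the main fit, was 1367 with DESeq2, 554 without a filter on low counts, 1638 at an adjusted p under 0.1, and 29 (without WT replicate 2) to 857 (without TET1 KO replicate 4) when livers were left out. Of the 10 members, 3 were called with DESeq2, 2 without a filter, 2 with robust dispersions and 2 at an adjusted p under 0.1, and 0 to 1 when livers were left out. Apoa1 was among those called in each of these 4 settings, and Apoc3 with DESeq2. Of 126 values of the other 9 members, 117 kept their direction and side of the threshold, 4 passed it newly, and 5 changed sign. Apoa5 was at -0.021 with library size only and at -0.020 with the replicate block, and between -0.027 and 0.13 when livers were left out. Apoe lay between -0.19 and 0.018 and Saa2 between -4.25 and 0.20 without single livers. Of 234 values of 17 other named genes, 189 kept direction and side of the adjusted p threshold, 39 no longer passed it, 5 passed it newly and 1 changed sign. Cd36 passed it throughout but went beyond the fold limit of a call in 5 of its 14 alternatives. The cause of these changes was not tested.

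The replicate numbers are shared by the genotypes, and the labels do not say whether they pair the livers. Deviations of equal-numbered livers from their group means correlated at 0.21, -0.12 and -0.10 over genes. Those of unlike-numbered livers lay between -0.30 and 0.31. No pairing by number was seen, but with so few livers this cannot exclude one. With the replicate number as a block, 1290 genes were called, 1 member was called, and the log2 fold change of Apoa4 was -2.09, or -2.38 relative to the other apolipoproteins, where 2086 genes were called. TET1 KO replicate 4 has no WT partner and does not enter the contrast there. Tet1 and the intestinal markers Vil1, Cdh17, Alpi, Lct and Sis had too few counts a library to be compared between genotypes, which was not so for the members.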
